A study of Mus musculus with 7 samples.

Results

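The interferon-induced transmembrane (Ifitm) family was followed through bone marrow hematopoietic stem cells (HSCs) that had been sorted by a fluorescent reporter of Hdc, the gene for the histamine-making enzyme histidine decarboxylase. Its members were taken by symbol, and all 6 (Ifitm1, Ifitm2, Ifitm3, Ifitm5, Ifitm6 and Ifitm7) were among the 23284 genes of the count table. The cells came from C57BL/6 mice carrying Hdc-GFP, 500 cells per library, and were sorted as Hdc-GFPhi (3 libraries) or Hdc-GFPlo (4 libraries). Both groups carried the reporter, no treatment is named in the labels, and the age of the mice, the gates of the sort and whether replicates came from separate animals are not given there. For Hdc-GFPlo replicate 4 the sorted fraction is labelled GFP negative, unlike the other 3 libraries of that group. Its title says GFPlo as theirs do, and the count columns of all 4 are headed GFPminus. The labels thus conflict and do not settle whether it was sorted differently. The comparison asked which transcripts differ between HSCs with a bright and with a dim reporter.

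IFITM proteins are small membrane proteins that hinder the entry of enveloped viruses where these fuse with cell membranes. Interferon raises the transcription of several members through a response element bound by STAT and IRF factors, and stem cells are known to keep some members expressed without added interferon. IFITM3, the best studied, sits in endosomes and restricts influenza virus in mouse and human, IFITM1 is found more at the cell surface, and IFITM2 is, like IFITM3, largely endosomal in human cells. IFITM5, also called BRIL, is a protein of bone-forming osteoblasts, and Ifitm6 is a mouse member with no human counterpart of the same name.

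The promoters show which members carry the letters of an interferon-response element near their start. RefSeq promoter windows (GRCm38.p6, 250 bases before and 50 after the start site) were given for 6 of 6 members, 5 on chromosome 7 and Ifitm7 on chromosome 16. The windows were searched on both strands for GAAA followed after any 2 bases by GAAA, the core of the interferon-stimulated response element, and for TTCNNNGAA, the gamma-activated sequence. The response element core was found in Ifitm2 (1 match) and Ifitm3 (2 matches), and in 3.44% of all 32851 promoters in the table. Of 45 interferon-stimulated genes with a promoter there, a list chosen for this comparison without the Ifitm genes, 19 held it. The gamma-activated letters were found in Ifitm3 and Ifitm6, and in 8.30% of all promoters. The Ifitm1, Ifitm5 and Ifitm7 windows held neither set of letters. The stretches of 30 bases below carry these matches in capitals, with the position of the first capital counted from the start site (position 1 is the first transcribed base). The match of the gamma-activated letters in Ifitm3 overlaps its second response element match.
Ifitm2, response element, position -46: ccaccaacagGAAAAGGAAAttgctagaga
Ifitm3, response element, position 3: caaaattcagGAAAAGGAAActtctgagaa
Ifitm3, response element, position 20: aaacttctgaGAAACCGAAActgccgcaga
Ifitm3, gamma-activated letters, position 14: aaaaggaaacTTCTGAGAAaccgaaactgc
Ifitm6, gamma-activated letters, position -10: ccatatgaacTTCCTTGAAacaagagcttc

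The 250 bases before the start are shown for Ifitm2 and Ifitm3, the members with a response element match, with that match in capitals where it lies upstream. Both lie on the minus strand and are written 5′ to 3′ along the gene. The longest run of letters that their 300-base windows share, 13 bases, is caggaaaaggaaa, and it holds the response element letters of each. Between Ifitm1 and Ifitm2 and between Ifitm1 and Ifitm3 the longest shared run was 8 bases.
Ifitm2, chr7:140955962-140956211, minus strand: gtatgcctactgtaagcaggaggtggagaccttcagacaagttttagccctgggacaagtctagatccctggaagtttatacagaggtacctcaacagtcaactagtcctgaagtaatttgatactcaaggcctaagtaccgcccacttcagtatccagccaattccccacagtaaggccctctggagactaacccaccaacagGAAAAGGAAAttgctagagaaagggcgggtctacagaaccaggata
Ifitm3, chr7:141010745-141010994, minus strand: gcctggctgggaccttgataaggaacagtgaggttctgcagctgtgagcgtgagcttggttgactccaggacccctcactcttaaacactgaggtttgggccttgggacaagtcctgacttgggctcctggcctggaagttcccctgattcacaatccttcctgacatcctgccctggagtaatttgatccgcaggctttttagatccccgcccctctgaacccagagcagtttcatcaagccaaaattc

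The members are close relatives in sequence, which bears on how their reads could be told apart. In the GENCODE M21 transcripts the coding sequences of Ifitm1 and Ifitm3 matched at 82.1% of aligned bases, those of Ifitm2 and Ifitm3 at 80.9% and those of Ifitm1 and Ifitm7 at 89.3%. Ifitm6 matched the other members at 64.3% to 68.8%, and Ifitm5 did so at 62.4% to 66.5%. Of the distinct 50-base stretches of Ifitm2, 48.5% also occurred in a transcript of another annotated gene (Ifitm3, the read-through gene Gm45717 or pseudogenes). The share was 10.02% for Ifitm3, 5.02% for Ifitm1, 25.3% for Ifitm5, 8.85% for Ifitm7 and 0% for Ifitm6. Part of this sharing is overlap at the same place in the genome, not a second match elsewhere. Gm45717, on the same strand, shares 268 of the 655 exon bases of Ifitm2 and 227 of the 765 of Ifitm5, and was not among the counted genes. It was the only other gene for the stretches of Ifitm5. Those of Ifitm7 were shared only with 2900011O08Rik, which overlaps 226 of its exon bases on the opposite strand, and the library kit does not mark strand. How reads with more than 1 match were counted is not given in the sources used here, so the counts of Ifitm2, which also shares stretches with Ifitm3 and pseudogenes, are uncertain.

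Ifitm3, Ifitm1 and Ifitm2 were expressed in every library, each with at least 6513 reads, Ifitm6 was far lower, and Ifitm5 and Ifitm7 were at the edge of detection. Levels are given as CPM, read counts scaled to a common library size with edgeR's TMM factors. Total counts were 19606124 to 23688672 per library, so that 3 reads, taken as the limit behind a count of 0, stand for 0.125 to 0.160 CPM. Intervals and limits of this kind cover counting error only, since amplified reads are not independent molecules. All 10 HSC markers had counts in all 7 libraries, with a summed level of 2690 to 3021 CPM in Hdc-GFPhi and 3162 to 3424 CPM in Hdc-GFPlo. Among markers of other cell types, neutrophil genes were present in every library (11 genes, summed level 5966 to 8329 CPM in Hdc-GFPhi and 2814 to 6883 CPM in Hdc-GFPlo). In bulk RNA of this kind, more cells of a type and more RNA per cell cannot be told apart. The eosinophil gene Prg2 had 11750 counts in Hdc-GFPhi replicate 1 and at most 171 in any other library.

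Per kilobase of annotated exon, the order of the levels was Ifitm3, Ifitm2, Ifitm1, Ifitm6, then Ifitm5 and Ifitm7. In CPM per kilobase the means in Hdc-GFPhi and Hdc-GFPlo were 1046 and 913 for Ifitm3, 608 and 564 for Ifitm2, 398 and 361 for Ifitm1 and 27.1 and 13.5 for Ifitm6. Ifitm3 lay above Ifitm2 in every library (866 to 1074 against 537 to 618 CPM per kilobase). The place of Ifitm1 depends on the transcript assumed, because its annotated transcripts are 560 to 882 bases long and their exons together cover 1094 bases. With 560 bases its means were 778 and 705 CPM per kilobase, above those of Ifitm2. Ifitm5 (0 to 2.01 CPM per kilobase) and Ifitm7 (0 to 0.506) overlapped and were not separated.

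Values of Ifitm3, the main virus-restricting member, were slightly higher in all Hdc-GFPhi libraries, a small difference that missed the threshold of the test across the table. It was measured at 686, 714 and 728 CPM in Hdc-GFPhi replicates 1 to 3 and at 646, 587, 621 and 622 CPM in Hdc-GFPlo replicates 1 to 4. Every Hdc-GFPhi library lay above every Hdc-GFPlo library, with the closest pair 686 against 646 CPM. The group means were 709 ± 21.6 CPM (SD, n = 3) and 619 ± 24.1 CPM (SD, n = 4). The log2 fold change was 0.20 (SE 0.07) by edgeR's quasi-likelihood test over all genes (unadjusted p = 0.0152, Benjamini-Hochberg adjusted p = 0.307). Exact permutation of the 7 log2 CPM values, two-sided, gave p = 0.0286, the smallest that 35 splits allow. In DESeq2 the adjusted p was 0.0781.

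Of the 5 members that passed the filter on low counts, 0 passed the edgeR test, as did 0% of the 12917 genes tested (smallest adjusted p 0.211). Ifitm3 was the 1 member whose groups did not overlap, which held for 6.03% of all tested genes in the same direction, and the 1 member with an unadjusted p under 0.05, which 4.92% of all tested genes had in that direction and 7.31% in the other. DESeq2 gave no adjusted p for Ifitm7 and called 0 of the other 4 tested members. Of the 9895 genes with an adjusted p there, it called 0.718% as higher and 2.76% as lower in Hdc-GFPhi. All 5 tested members had log2 fold changes above 0, as did 51.6% of tested genes.

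Ifitm1 and Ifitm2 were higher in Hdc-GFPhi than in 3 of the 4 Hdc-GFPlo libraries. Ifitm1 was at 451, 434 and 422 CPM in Hdc-GFPhi and at 401, 346, 386 and 447 CPM in Hdc-GFPlo replicates 1 to 4. With 447 CPM, Hdc-GFPlo replicate 4 was second only to Hdc-GFPhi replicate 1, so the groups overlapped. Means were 436 ± 14.2 CPM (SD, n = 3) against 395 ± 41.5 CPM (SD, n = 4), with a log2 fold change of 0.14 (SE 0.09, edgeR adjusted p = 0.577), and the difference did not exceed the spread between libraries.

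Ifitm2 repeated that order, at 403, 391 and 400.4 CPM against 362, 352, 359 and 405 CPM. Here Hdc-GFPlo replicate 4 was the highest of all 7 libraries, while the other 3 of its group lay below every Hdc-GFPhi library. The log2 fold change was 0.11 (SE 0.08, edgeR adjusted p = 0.615). Without Hdc-GFPlo replicate 4, whose labels conflict, the log2 fold changes of Ifitm1, Ifitm2 and Ifitm3 were 0.21, 0.15 and 0.20. Their edgeR adjusted p were 0.376, 0.416 and 0.332. In an overlap count added after seeing the data, groups then did not overlap for these 3 of 5 tested members. The share of tested genes was 10.4% in that direction and 9.75% in the other. For Ifitm1 and Ifitm2 this follows from the values above, where replicate 4 alone overlapped, so the count is no separate result. With Hdc-GFPhi replicate 1 left out as well, likewise added later, these 3 members could not come to overlap. Groups then did not overlap for 14.5% of tested genes in that direction and 13% in the other. The log2 fold changes of the 3 members were 0.17, 0.14 and 0.21. The HSC marker sums of the groups did not overlap, with Hdc-GFPhi lower, while the neutrophil marker sums overlapped between the groups. The 7 megakaryocyte and platelet markers summed to 1062, 793 and 1043 CPM in Hdc-GFPhi and to 552, 547, 502 and 834 CPM in Hdc-GFPlo replicates 1 to 4, so that replicate 4 lay within the Hdc-GFPhi range and the other 3 below it, as for Ifitm1. All 6 of them that were tested had higher values in Hdc-GFPhi, as did 51.6% of tested genes. In edgeR 0 passed, and 3 had an unadjusted p under 0.05, against 4.92% of tested genes in that direction. DESeq2 called 3 as higher, against 0.718% of the genes with an adjusted p there. Among the 7 markers, Gp6 was at 0 in every library. Pf4, with the smallest p of the list, was at 182, 139 and 235 CPM in Hdc-GFPhi and at 80.1, 91.2, 72.5 and 104 CPM in Hdc-GFPlo. Its groups did not overlap (edgeR adjusted p = 0.211, DESeq2 adjusted p = 1.26e-05), and replicate 4 lay below every Hdc-GFPhi library. The part of these marker lists in the Ifitm differences was not tested.

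**Figure D1:**
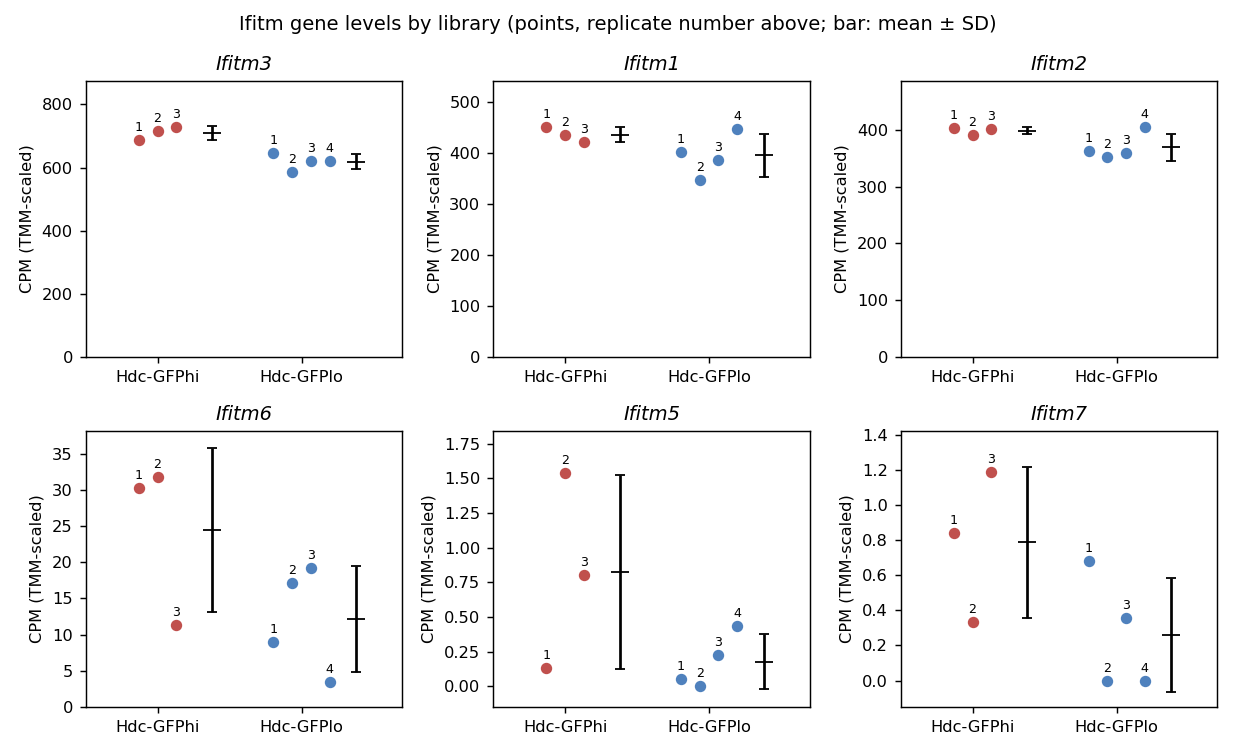
Level of each Ifitm gene in TMM-scaled CPM (y axis) in the 3 Hdc-GFPhi and 4 Hdc-GFPlo libraries (points, with the replicate number), with the mean and SD of each group. All 3 Hdc-GFPhi points of Ifitm3 (686 to 728 CPM) lie above the Hdc-GFPlo points (587 to 646 CPM), while replicate 4 of Hdc-GFPlo lies among the Hdc-GFPhi points for Ifitm1 (447 CPM) and just above them for Ifitm2 (405 CPM).

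Summed over the 6 genes, the family took 1571, 1573 and 1564 CPM in the Hdc-GFPhi libraries and 1419, 1303, 1386 and 1477 CPM in Hdc-GFPlo replicates 1 to 4. The sum is nearly all Ifitm1, Ifitm2 and Ifitm3, and its SD was 4.59 CPM among the Hdc-GFPhi libraries and 72.8 CPM among the Hdc-GFPlo libraries. As a share of all reads it was 0.156% to 0.161% and 0.125% to 0.147%.

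The proportions among the 3 abundant members were similar in both groups. Ifitm3 had 1.63 ± 0.10 reads per read of Ifitm1 in Hdc-GFPhi (SD, n = 3) and 1.58 ± 0.13 in Hdc-GFPlo (SD, n = 4), with the lowest ratio, 1.39, in Hdc-GFPlo replicate 4. Ifitm2 had 0.914 ± 0.030 and 0.939 ± 0.053 reads per read of Ifitm1, and both ratios overlapped between the groups. Across the 7 libraries the coefficients of variation of the levels were 9.09% for Ifitm1, 6.04% for Ifitm2 and 8.02% for Ifitm3. Genes within 1.5-fold of the same levels had medians of 9.48%, 9.56% and 9.48%, so these members varied about as much as others of their abundance or less.

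Ifitm6 varied widely between libraries for a gene of its level. It was measured at 30.2, 31.8 and 11.4 CPM in Hdc-GFPhi and at 8.96, 17.1, 19.3 and 3.38 CPM in Hdc-GFPlo replicates 1 to 4. The first 2 Hdc-GFPhi libraries lay above all others, while replicate 3 lay within the range of Hdc-GFPlo. The counts behind these levels ran from 70 in Hdc-GFPlo replicate 4 to 766 in Hdc-GFPhi replicate 2. The means were 24.5 ± 11.4 CPM (SD, n = 3) and 12.2 ± 7.36 CPM (SD, n = 4), with a log2 fold change of 1.01 (SE 0.54, edgeR adjusted p = 0.482, exact permutation p = 0.200). With the pair Hdc-GFPhi replicate 1 and Hdc-GFPlo replicate 4 left out, a setting added later, the log2 fold change was 0.50 (edgeR adjusted p = 0.786). That pair holds a high Hdc-GFPhi value (30.2 CPM) and the lowest Hdc-GFPlo value (3.38 CPM). A smaller difference therefore followed from the choice. Its coefficient of variation, 61.03%, was above that of 98.1% of the 1771 tested genes within 1.5-fold of its level, whose median was 22.7%.

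Markers of other myeloid cells also varied between libraries, in orders that matched that of Ifitm6 only in part. The 6 myeloid progenitor markers summed to 2640.5, 917 and 421 CPM in Hdc-GFPhi and to 706, 593, 1446 and 139 CPM in Hdc-GFPlo replicates 1 to 4. The lowest sum and the lowest Ifitm6 level were both in Hdc-GFPlo replicate 4, where Elane and Ctsg, genes of granule proteases, had 0 counts. The 12 monocyte and macrophage markers summed to 344, 146 and 147 CPM in Hdc-GFPhi and to 127, 275, 158 and 59.02 CPM in Hdc-GFPlo. That sum was again lowest in Hdc-GFPlo replicate 4, but Hdc-GFPhi replicate 2, with the highest Ifitm6 level, lay below Hdc-GFPlo replicate 2. The 11 neutrophil markers summed to 5966, 8329 and 6804 CPM in Hdc-GFPhi and to 3372, 6883, 4307 and 2814 CPM in Hdc-GFPlo, also lowest in replicate 4. All 11 had higher values in Hdc-GFPhi, as did 51.6% of tested genes. Of them 6 were at an unadjusted edgeR p under 0.05, against 4.92% of tested genes in that direction. Groups did not overlap for 3, against 6.03% of tested genes in that direction. In edgeR 0 passed, and DESeq2 called 2 as higher, against 0.718% of the genes with an adjusted p there. All 6 myeloid progenitor markers also had higher values in Hdc-GFPhi, with 0 at an unadjusted p under 0.05. Of the monocyte and macrophage markers, 7 were higher and 5 lower. The part of these marker lists in the Ifitm6 difference was not tested.

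**Figure D2:**
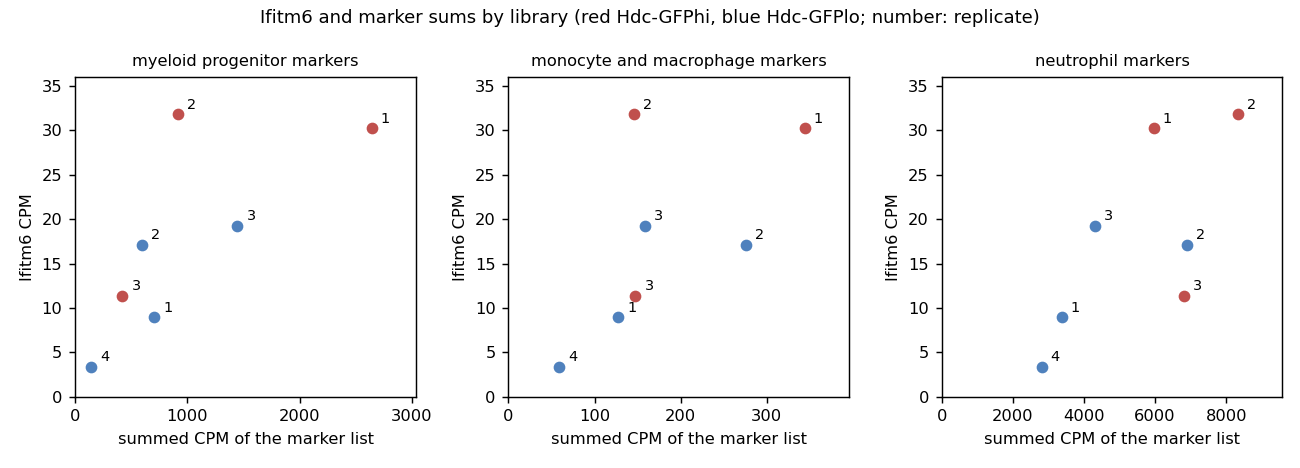
Level of Ifitm6 in CPM (y axis) against the summed CPM of 3 marker lists (x axis) in each library, red for Hdc-GFPhi and blue for Hdc-GFPlo, with the replicate number. Replicate 4 of Hdc-GFPlo is lowest on both axes in each panel (3.38 CPM of Ifitm6), and Hdc-GFPhi replicate 3 (11.4 CPM) lies among the Hdc-GFPlo libraries.

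Ifitm7 and Ifitm5 were barely counted. Ifitm7 had 19, 8 and 25 reads in Hdc-GFPhi and 14, 0, 8 and 0 reads in Hdc-GFPlo replicates 1 to 4. It passed the filter narrowly, and its log2 fold change of 1.57 (SE 1.45, edgeR adjusted p = 0.702) rests on these few reads. Its counts of 0 allow a level of up to 0.160 CPM in Hdc-GFPlo replicate 2 and 0.145 CPM in replicate 4.

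Ifitm5 had 3, 37 and 17 reads in Hdc-GFPhi and 1, 0, 5 and 9 reads in Hdc-GFPlo, and the filter on low counts removed it. In the fit without that filter its log2 fold change was 2.18, with overlapping groups (exact permutation p = 0.143). It passed the filter, with a log2 fold change of 2.68, when Hdc-GFPhi replicate 1 was left out, and of 3.57 when Hdc-GFPlo replicate 4 was left out too (edgeR adjusted p of 0.706 and 0.566). It then passed through the remaining Hdc-GFPhi libraries alone, with 37 and 17 reads. The libraries left out held its lowest Hdc-GFPhi count (3) and its highest Hdc-GFPlo count (9). Larger differences therefore followed from that choice and are no separate result. Markers of osteoblasts, the cells that use Ifitm5, were at 0 or low. Of 6 such genes the transcription factor gene Sp7 and the matrix gene Dmp1 had 0 counts in all libraries, and the osteocalcin gene Bglap had at most 3. The alkaline phosphatase gene Alpl, which other cells also use, had 13 to 83 counts, the sialoprotein gene Ibsp 0 to 40 and the collagen gene Col1a1 0 to 34. The list summed to 1.28 to 2.83 CPM in Hdc-GFPhi and 2.47 to 5.07 CPM in Hdc-GFPlo.

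**Figure D3:**
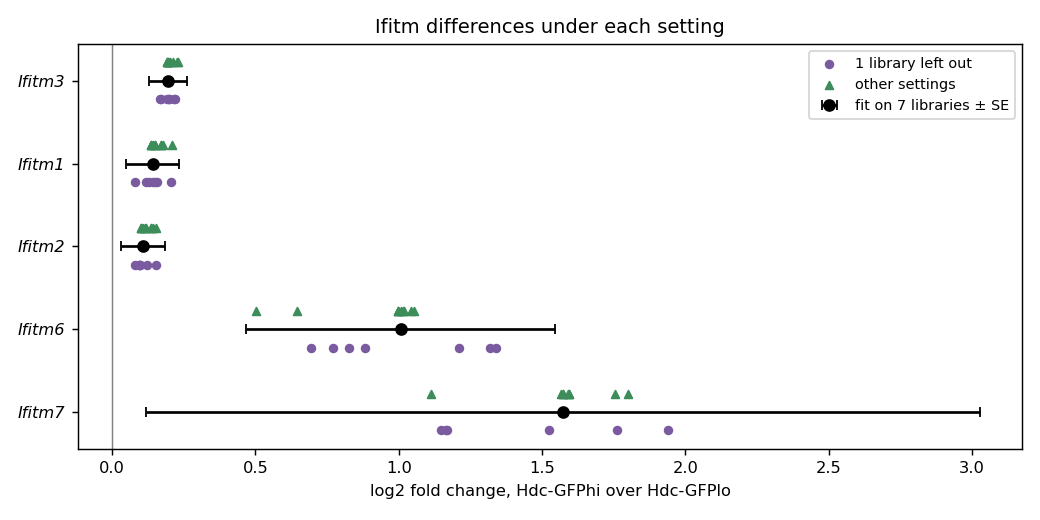
Log2 fold change of Hdc-GFPhi over Hdc-GFPlo (x axis) for the 5 tested members. Black points are the fit on 7 libraries with its SE, purple points leave out 1 library each and green triangles are the other settings. All values lie above 0, from 0.17 to 0.23 for Ifitm3 and from 0.50 to 1.34 for Ifitm6.

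Other interferon-stimulated genes did not share a direction. Of 58 tested genes on that list 32 had higher and 26 lower values in Hdc-GFPhi, with a median log2 fold change of 0.03 against 0.01 over all tested genes, and 0 passed edgeR in either direction. Groups did not overlap for 5 genes that were higher and 4 that were lower, against 6.03% and 5.86% of all tested genes. At an unadjusted p under 0.05 there were 1 higher and 3 lower, against 4.92% and 7.31% of all tested genes. With the same pair of libraries left out, groups did not overlap for 13 higher and 4 lower genes, against 14.5% and 13% of all tested genes. The summed level was 10079 to 10827 CPM in Hdc-GFPhi and 10492 to 10948 CPM in Hdc-GFPlo.

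The listed genes with the smallest p included members on both sides. Parp14, a gene of the ADP-ribosyltransferase family, was at 26.5, 33.3 and 33.6 CPM in Hdc-GFPhi and at 55.6, 45.2, 40.2 and 51.3 CPM in Hdc-GFPlo. All Hdc-GFPhi libraries were lower (-0.63 on the log2 scale, SE 0.16, edgeR adjusted p = 0.239), and DESeq2 called the gene (adjusted p = 0.0216). Gbp3, a guanylate-binding GTPase gene, was at 38.4, 30.3 and 34.98 CPM against 46.2, 44.03, 50.5 and 62.9 CPM, likewise with no overlap (-0.56, SE 0.16, edgeR adjusted p = 0.275). Ifi35, an interferon-induced leucine zipper gene, was at 96.02, 87.3 and 81.5 CPM against 77.9, 57.8, 77.9 and 69.1 CPM, on the side of Ifitm3 (0.32, SE 0.13, edgeR adjusted p = 0.374).

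The interferon genes that were looked up had no reads, while receptor genes did. Of 9 listed interferon genes 7 were in the table, Ifnb1 and Ifng among them, and these had 0 counts in every library. Ifnar1, a subunit of the type I interferon receptor, was at 121 to 137 CPM in Hdc-GFPhi and 117 to 127 CPM in Hdc-GFPlo, a log2 fold change of 0.08 (SE 0.09, edgeR adjusted p = 0.752). Values of 12 of the 23 receptor and signalling genes were higher and of 11 lower, with a median log2 fold change of 0.02. In edgeR 0 of them passed, and 1 was higher at an unadjusted p under 0.05, against 4.92% of all tested genes in that direction.

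That gene was Irf3, a transcription factor that switches on interferon genes, at 82.4, 69.9 and 77.9 CPM against 66.8, 56.1, 69.3 and 61.8 CPM (log2 fold change 0.27, SE 0.12, edgeR adjusted p = 0.399). Irf7, the interferon-induced relative of Irf3, was at 62.3, 60.5 and 66.6 CPM against 55.4, 47.3, 55.1 and 58.0 CPM, also without overlap (0.23, SE 0.12, edgeR adjusted p = 0.466). Irf1, a factor of the interferon-gamma response, had a log2 fold change of 0.25 (SE 0.13, edgeR adjusted p = 0.464) and overlapping groups.

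Enzymes and partners that act on IFITM proteins were higher in 4 cases and lower in 10 of 14 tested, with a median log2 fold change of -0.04, and 0 passed edgeR. At an unadjusted p under 0.05 there were 1 higher and 2 lower, against 4.92% and 7.31% of all tested genes. Nedd4, a ubiquitin ligase that marks IFITM3 for turnover, was at 746, 815 and 725 CPM in Hdc-GFPhi and at 865, 866, 884 and 840.5 CPM in Hdc-GFPlo. It was lower in all Hdc-GFPhi libraries (-0.18 on the log2 scale, SE 0.07, edgeR adjusted p = 0.334). Zdhhc15, a palmitoyltransferase gene, differed by -0.86 on the log2 scale (SE 0.35, edgeR adjusted p = 0.379), with 7.47 CPM in Hdc-GFPhi replicate 1 and 18.1 to 36.4 CPM in the other 6 libraries. Abhd16a, which encodes a lipase that also removes palmitate from proteins, differed by 0.22 on the log2 scale (SE 0.10, edgeR adjusted p = 0.403) with overlapping groups.

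**Figure D4:**
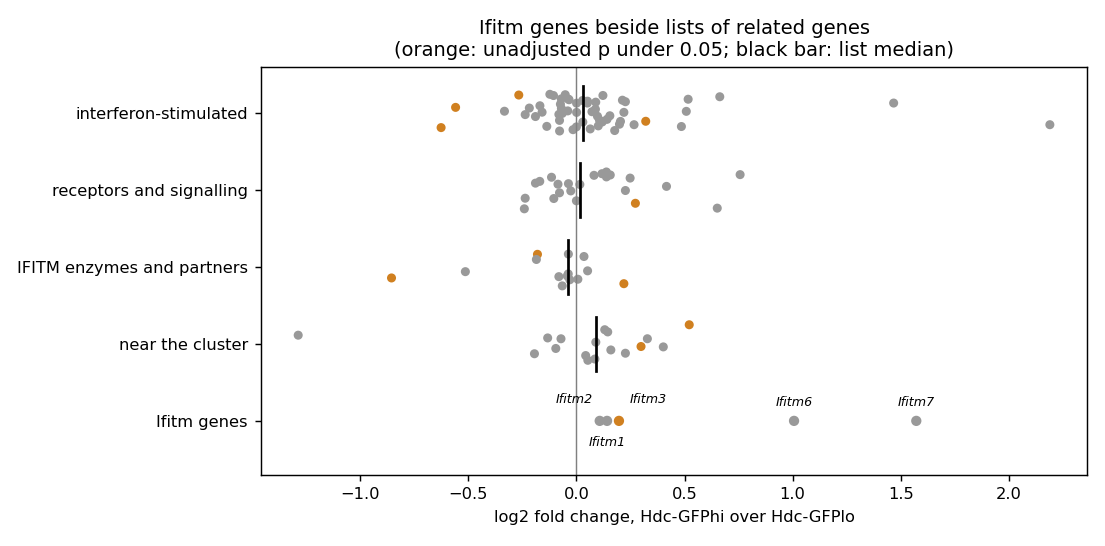
Log2 fold change of Hdc-GFPhi over Hdc-GFPlo (x axis) of each tested gene on 4 related lists and of the 5 tested Ifitm genes, orange where the unadjusted edgeR p was under 0.05. The list medians (black bars) lie between -0.04 and 0.09, and the 5 Ifitm genes lie between 0.11 and 1.57.

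The other dispanins, relatives of the IFITM proteins with the same membrane fold, were low. Of the 7 relatives counted, 2 were tested, Tmem91 (log2 fold change -0.17, SE 0.93) and Prrt2 (0.89, SE 0.97), with edgeR adjusted p of 0.957 and 0.754, and the list summed to at most 4.82 CPM in a library.

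Genes that neighbour the chromosome 7 cluster had differences of either sign. Values of 12 of the 17 tested neighbours were higher and of 5 lower, with a median log2 fold change of 0.09. Over all tested genes 51.6% were higher. Of the neighbours, 0 passed edgeR, and 2 were higher at an unadjusted p under 0.05, against 4.92% of all tested genes. These were Rassf7, a Ras association domain gene, at 20.5, 22.1 and 22.8 CPM against 16.7, 10.5, 18.8 and 14.8 CPM (log2 fold change 0.52, SE 0.22, edgeR adjusted p = 0.387), and Sirt3, a mitochondrial deacetylase gene (0.30, SE 0.13, edgeR adjusted p = 0.402). Sigirr, which encodes an inhibitory receptor of the interleukin-1 receptor family, had a log2 fold change of 0.33 (SE 0.16, edgeR adjusted p = 0.436). The lowest value was that of Nlrp6, a sparsely counted inflammasome sensor gene, at -1.29 with an SE of 1.64.

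**Figure D5:**
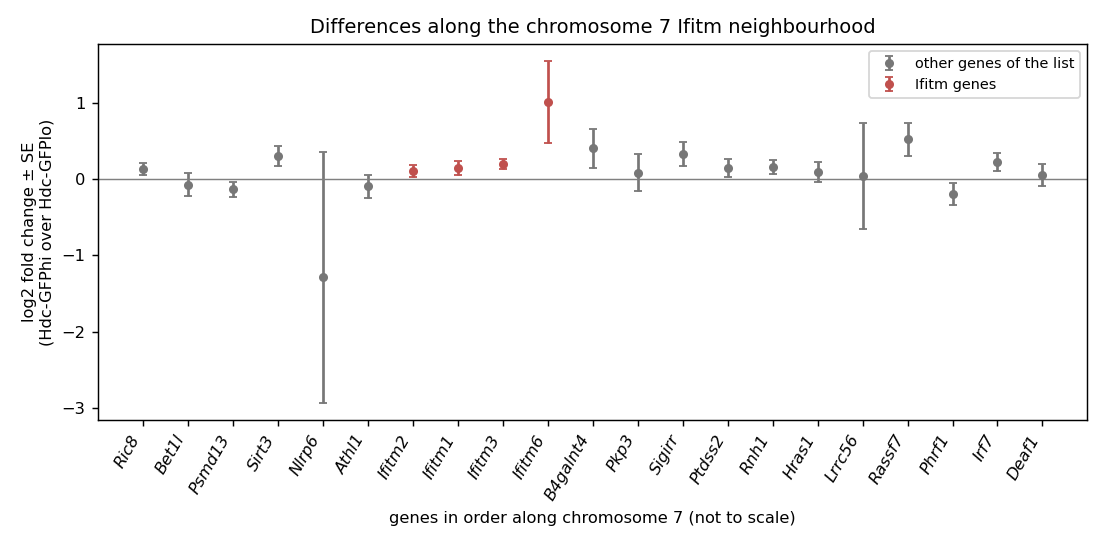
Log2 fold change of Hdc-GFPhi over Hdc-GFPlo with its SE (y axis) for the tested Ifitm genes (red) and the listed neighbours (grey), in their order along chromosome 7 in GENCODE M21 and not to scale. Ifitm1, Ifitm2 and Ifitm3 (0.11 to 0.20) lie among their neighbours, which run from -0.19 to 0.52 apart from Nlrp6 (-1.29), and Ifitm6 (1.01) lies above them with a wide SE.

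The genes most like each member across the 7 libraries, by Pearson's r of log2 CPM with a pseudocount of 2, were picked as the highest among 10465 genes, so high values of r are a product of the choice and are given as a description. For Ifitm1 they were the proteasome subunit gene Psmb5, the calcium sensor gene Stim1 and the elongation factor gene Eef2 (r of 0.98 to 0.99). For Ifitm2 they were Slc33a1, Tmem42 and Rpl13a, and for Ifitm3 they were Dlgap4, BC003965 and Iqcc (r of 0.98 each to 2 decimals). For Ifitm6 they were Rab44, Ethe1 and Ppp1r16a (r of 0.97 to 0.98), and for Ifitm7, at few reads, Tnrc18, Cx3cl1 and Wdr55 (r of 0.95 to 0.97). Among the members themselves, Ifitm1 and Ifitm2 were the most alike (r = 0.92, or 0.87 for deviations from the group means), and Ifitm2 stood at place 107 in likeness to Ifitm1. Ifitm3 had r of 0.66 with each of them, or 0.40 and 0.18 within the groups, and Ifitm6 had r of -0.08 with Ifitm1 and -0.12 with Ifitm2, or -0.60 and -0.79 within the groups. All of these values rest on the same 7 libraries of both sorted fractions.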

How the data were processed

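RNA was isolated from 500 sorted HSCs per library with a PicoPure kit, amplified by the SMARTer Ultra Low Input method and made into libraries by Nextera XT, per the labels' protocols. Per the submitters' processing notes, bcl2fastq 1.8.4, TopHat2 (given as 2.0.4 and 2.04), Bowtie2 and HTSeq 0.6.1 were used with build mm9; which annotation and strand setting they used is not given in the sources used here. Values were deposited as raw counts per gene symbol, 1 column per library, and columns were matched to samples by library code. Groups and replicate numbers came from the titles.

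In R 4.3.3, edgeR 4.0.16 was run on all genes left by filterByExpr (minimum count 10; 12917 of 23284), with TMM scaling, the robust quasi-likelihood F test and Benjamini-Hochberg adjustment over all tested genes (threshold 0.05). SE was taken as the size of the log2 fold change over the root of F. No label says that replicates came from separate animals, and p-values then reflect only how these samples vary, possibly a technical spread. DESeq2 1.42.0, limma 3.58.1 with quality weights, other scalings and filters, a replicate block and leaving out libraries were alternatives. Exon lengths, gene order and 50-base stretches came from GENCODE M21 (GRCm38) and promoters from RefSeq (GRCm38.p6), so no coordinate was joined to the mm9 counts.

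The members and lists were chosen with earlier results of these data known. Named genes were the 6 members, the 3 genes of each related list with the smallest unadjusted p, and the 3 genes most like each tested member at a mean of at least 5 CPM. Prg2, Elane, Ctsg, Sp7, Dmp1, Bglap, Alpl, Ibsp, Col1a1, Gp6, Pf4, Nlrp6, Ifnb1, Ifng, Ifnar1 and 2900011O08Rik were named after their values were seen.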

Additional observations from a re-analysis of the deposited data

Results flagged for a closer look

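In groups of 4 libraries, 1 library far from the other 3 was looked for in 42 values (chance marks about 1 in 20), and 2 were found, neither of them an Ifitm gene. The summed level of the interferon receptor and signalling list was 3836, 3818, 3843 and 3596 CPM in Hdc-GFPlo replicates 1 to 4, so that the gap below took 0.899 of the range of the group, past Dixon's 95% limit for 4 samples. The summed level of the megakaryocyte and platelet markers was 552, 547, 502 and 834 CPM in the same libraries, with a gap of 0.851 of the range. Both gaps separate Hdc-GFPlo replicate 4, whose labels conflict on the sorted fraction. The Hdc-GFPhi group, with 3 libraries, was not tested in this way.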

How the results depend on the processing

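All 5 tested members kept a log2 fold change above 0 under every setting that could give one (17 settings, or 15 for Ifitm7, which 2 settings removed), and none passed an adjusted p of 0.05. Ranges were 0.08 to 0.21 for Ifitm1, 0.08 to 0.15 for Ifitm2, 0.17 to 0.23 for Ifitm3 (adjusted p from 0.0781 in DESeq2 to 0.555), 0.50 to 1.34 for Ifitm6 and 1.11 to 1.94 for Ifitm7. The count of genes that passed was 0 in every edgeR and limma fit and 344 in DESeq2 (71 of them higher in Hdc-GFPhi); the cause was not tested. Genes at an unadjusted p under 0.05 numbered 1579, and 997 to 1884 when 1 library was left out, the lowest without Hdc-GFPhi replicate 1. With library totals as the only scaling, 826 of 1594 such genes were higher, against 635 of 1579. The median log2 fold change of interferon-stimulated genes (0.03 with all libraries) was between -0.038 and 0.042 when 1 library was left out, and below 0 without Hdc-GFPhi replicate 2 or Hdc-GFPlo replicate 2. A pseudocount of 0.5 in place of 2 kept 13 of the 15 genes named for likeness. Replicate numbers showed no sign of pairing the samples, though the labels do not say and so few libraries cannot settle it. Deviations of same-numbered libraries correlated at -0.06, -0.01 and -0.14 across genes, and no Hdc-GFPhi library was most like its own number. With a replicate block, without Hdc-GFPlo replicate 4, 0 genes passed and 1589 had an unadjusted p under 0.05. The log2 fold changes in that fit were 0.21 for Ifitm1, 0.15 for Ifitm2, 0.20 for Ifitm3, 0.64 for Ifitm6 and 1.76 for Ifitm7. Depth limits Ifitm5 and Ifitm7, whose highest counts were 37 and 25.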
